A study of Arabidopsis thaliana with 6 samples.

Results

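These data describe 4 regulatory genes of Arabidopsis thaliana leaves: the linker histone gene HIS1-3, the ethylene response factor gene AT5G61590, the bHLH gene AT5G50915 and the zinc finger gene STZ. They were chosen by name, with their values in this comparison already known, and each has 1 probe set that carries it as its single gene, and together these are 4 of the 22746 probe sets measured and 4 of 13356 genes named by them. Leaves of the des1-1 mutant were compared with leaves of the wild type, the accession Col-0, with 3 biological replicates of each on Affymetrix ATH1 arrays, 6 arrays in all. The mutant is a single SALK T-DNA insertion line in DES1, which belongs to the protein family of the O-acetylserine(thiol)lyases. The comparison asks how loss of DES1 function changes the leaf transcriptome. Plants of both genotypes were 3 weeks old and had grown in soil with Hoagland media, under 16 h of light at 20 °C and 8 h of dark at 18 °C. No stress treatment is named in the labels, and a second allele or a complemented line is not among these samples. DES1 had 0 probe sets with it as the single named gene; its level was not analysed here and gives no check of the genotypes.

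Linker histones bind the DNA that enters and leaves the nucleosome and help to compact chromatin. HIS1-3 is the plant linker histone that drought and abscisic acid induce, and guard cells are known to carry it in the absence of stress. The other genes code for proteins that bind DNA in promoters. Ethylene response factors recognise the GCC box, bHLH factors the E-box, and STZ, also named ZAT10, is a zinc finger repressor that salt, cold, drought and strong light induce. AT5G61590 is DEWAX, a repressor of wax synthesis genes whose transcript rises in the dark.

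All 4 genes stood higher in des1-1 leaves, by 1.35-fold to 2.0-fold, and in all 4 the genotypes did not overlap. Over all probe sets 9.87% had every des1-1 array above every wild-type array. Since the genes were chosen from this very contrast, these values are a description and no test of the genotype is given for them. Values are log2 expression values made with RMA, which brings all arrays to a common distribution, so a step of 1 is a 2-fold difference. Leaf RNA comes from many cell types, and fewer cells of a type and less RNA per cell cannot be told apart.

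**Figure D1:**
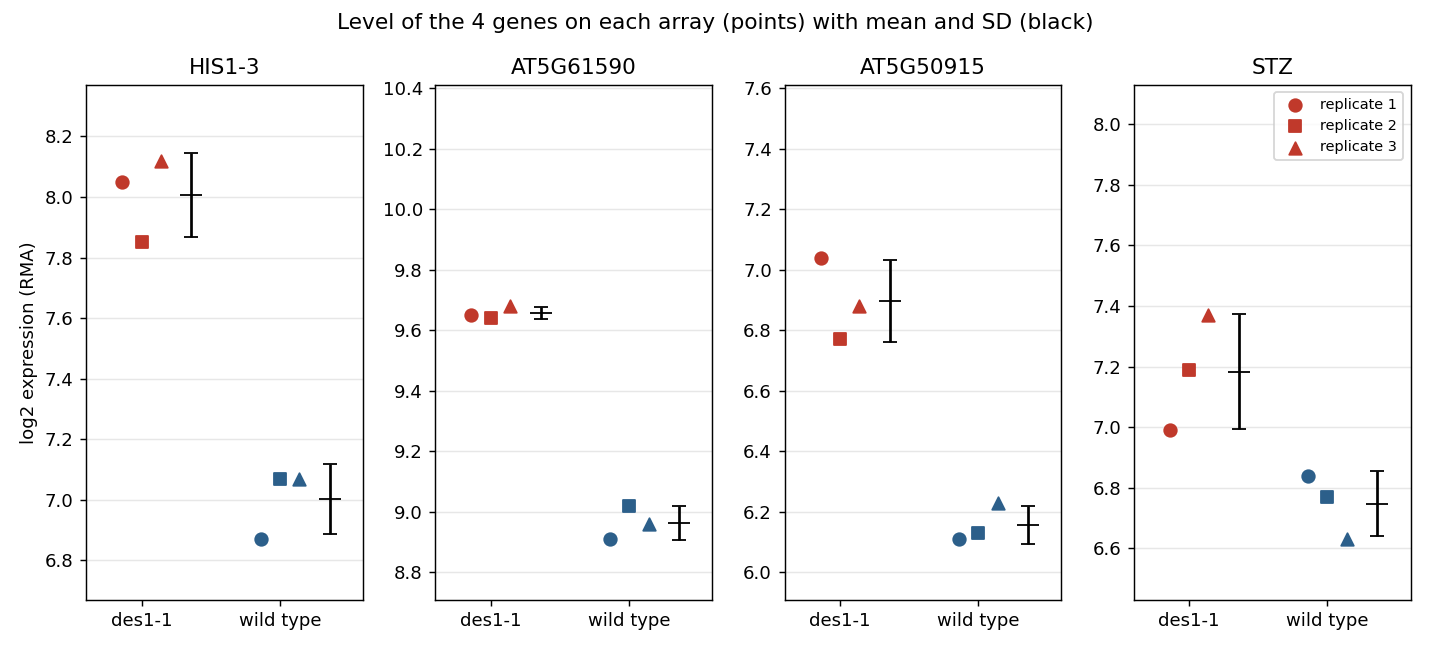
Log2 expression of HIS1-3, AT5G61590, AT5G50915 and STZ on each array, des1-1 in red and wild type in blue, with marker shape for the replicate number and the mean ± SD in black (n = 3 each). Every panel spans the same number of log2 units but starts at its own level. HIS1-3 has the widest gap between genotypes, 0.78, and STZ the narrowest, 0.15.

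HIS1-3 read 8.05, 7.85 and 8.12 in des1-1 leaves, against 6.87, 7.07 and 7.07 in wild-type leaves. The lowest des1-1 array lay 0.78 above the highest wild-type array, while the arrays of 1 genotype spanned at most 0.27. Means were 8.01 ± 0.14 in des1-1 and 7.0 ± 0.115 in the wild type (SD, n = 3 each), a log2 difference of 1.00 ± 0.10 SE or 2.0-fold. Taking each of the 9 pairs of a des1-1 and a wild-type array, HIS1-3 was 1.72-fold to 2.38-fold higher in the mutant. Of the 22746 probe sets 23 had a higher log2 difference than HIS1-3. The gene has 2 RefSeq transcripts, which its probe set does not separate.

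AT5G61590, the DEWAX gene, had the tightest replicates of the 4. Its des1-1 arrays read 9.65, 9.64 and 9.68, against 8.91, 9.02 and 8.96 in the wild type. The des1-1 values spanned 0.04 and the wild-type values 0.11, with 0.62 between the genotypes, so the gap was 5.64 times the wider of the 2 ranges. The mean was 9.66 ± 0.021 in des1-1 and 8.96 ± 0.055 in the wild type (SD, n = 3 each), which is 1.62-fold (log2 difference 0.69 ± 0.07 SE). Pairs of arrays across the genotypes gave 1.54-fold to 1.71-fold, the narrowest range among these genes. A higher difference was found for 67 probe sets.

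AT5G50915, the bHLH gene, read 7.04, 6.77 and 6.88 in des1-1 leaves, against 6.11, 6.13 and 6.23 in wild-type leaves. The mutant arrays were the more scattered, with a range of 0.27 against 0.12 in the wild type, and 0.54 separated the groups. Means of 6.90 ± 0.136 in des1-1 and 6.16 ± 0.064 in the wild type (SD, n = 3 each) give a 1.67-fold difference (0.74 ± 0.09 SE on the log2 scale). Across the pairs of arrays it ran from 1.45-fold to 1.91-fold. A higher difference was found for 51 probe sets, and the probe set does not separate the gene's 4 RefSeq transcripts.

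STZ differed least. Its values were 6.99, 7.19 and 7.37 in des1-1 leaves and 6.84, 6.77 and 6.63 in wild-type leaves. The groups did not overlap, but the gap of 0.15 was smaller than the range within des1-1, 0.38, and within the wild type, 0.21. The mean was 7.18 ± 0.19 in des1-1 and 6.75 ± 0.107 in the wild type (SD, n = 3 each), a log2 difference of 0.44 ± 0.11 SE or 1.35-fold. Single pairs of arrays ran from 1.11-fold to 1.67-fold, and 317 probe sets had a higher difference.

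The genes varied differently among the arrays of 1 genotype. Within des1-1, replicate 2 was the lowest array for HIS1-3, 0.16 below the genotype's mean, for AT5G50915, 0.13 below it, and for AT5G61590, 0.02 below it. For STZ replicate 1 was the lowest, 0.19 below, and replicate 3 the highest, 0.19 above. Within the wild type, replicate 1 was the lowest array for HIS1-3, AT5G61590 and AT5G50915 and the highest for STZ. With 3 arrays a genotype these orders are a description. The range within des1-1 exceeded that within the wild type in 3 of the 4 genes, AT5G61590 being the exception.

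The differences moved little when arrays were rescaled or left out. Leaving out any 1 array, the log2 difference of HIS1-3 lay between 0.94 and 1.08, that of AT5G61590 between 0.67 and 0.72, that of AT5G50915 between 0.67 and 0.80 and that of STZ between 0.34 and 0.53. STZ was lowest without des1-1 replicate 3 (0.34) and highest without des1-1 replicate 1 (0.53). HIS1-3 kept the highest difference and STZ the lowest in all 15 alternative settings. AT5G61590 and AT5G50915, 0.69 and 0.74, were within 1 SE of each other, and without des1-1 replicate 1 their order turned (0.70 and 0.67).

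**Figure D2:**
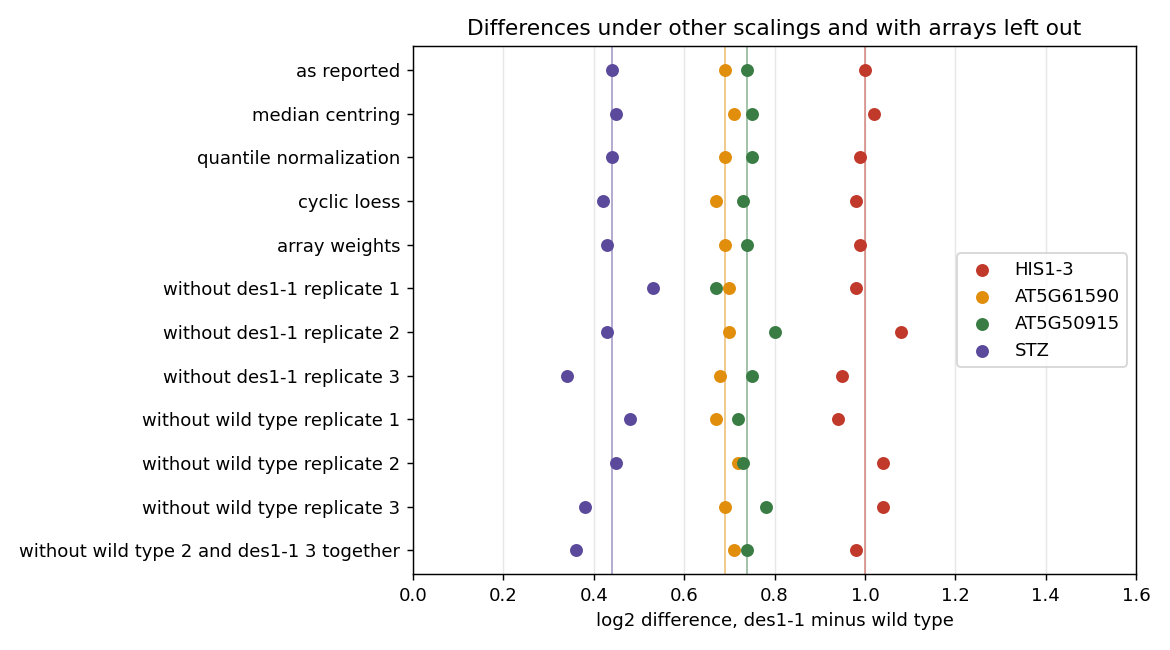
Log2 difference (des1-1 minus wild type, horizontal axis) of the 4 genes as reported, under other scalings of the arrays, with arrays weighted and with arrays left out (rows). Vertical lines mark the value as reported. HIS1-3 stays between 0.94 and 1.08 and STZ between 0.34 and 0.53, and AT5G61590 and AT5G50915 lie close together between them.

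The arrays had medians of 5.78 to 5.81, which RMA brings together, so these are no check of the arrays. All 4 genes were above the array's own median on all 6 arrays. AT5G50915 lay nearest to it, at 6.11, 6.13 and 6.23 in the wild type, and neither AT5G50915 nor STZ reached the upper quartile on any array. RMA compresses the differences of dim probe sets most, and how far it did so for these genes was not tested. Over all probe sets 88 passed limma's test at an adjusted p under 0.05, 0.387% of those tested, 75 higher and 13 lower in des1-1. That number was 765, 39 and 46 without des1-1 replicate 1, 2 and 3, and 28, 22 and 20 without wild-type replicate 1, 2 and 3. The 25S ribosomal RNA control read 5.49 to 6.20 on the des1-1 arrays, against 10.2 on wild-type replicate 2 and 5.54 and 5.63 on the other wild-type arrays. Without wild-type replicate 2 the differences were 1.04 for HIS1-3, 0.72 for AT5G61590, 0.73 for AT5G50915 and 0.45 for STZ. For the GAPDH control, the signal at the 3 prime end minus that at the 5 prime end, a sign of RNA quality, was -0.57, -0.32 and -0.51 in des1-1 and -0.74, -0.65 and -0.66 in the wild type. It did not overlap between the genotypes. The same measure for the actin control did overlap, at 1.40, 1.33 and 1.24 in des1-1 and 1.43, 1.33 and 1.09 in the wild type. The part of RNA quality in the levels of the 4 genes was not tested.

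Markers of leaf mesophyll were bright. A listed gene counts as measured here where a probe set carries it as the single named gene, and the array may hold further probe sets for the others. Of 10 mesophyll markers 5 were measured, and their mean log2 level was 13.11 to 13.20 in des1-1 and 13.19 to 13.25 in the wild type, far above the arrays' upper quartiles of 7.79 to 7.89. In limma 0 of the 5 passed, against 0.387% of all probe sets. PRK and SBPASE, enzymes of the Calvin cycle, differed by -0.17 and -0.16 without overlap between genotypes (adjusted p = 0.335 and 0.339), RCA by -0.07, and the antenna protein gene LHCB4.2 by 0.07. Over all probe sets 4215 of 22746 had no overlap in either direction. The 3 of 5 root markers measured averaged 4.86 to 5.23 in des1-1 and 4.90 to 5.08 in the wild type. Guard cells matter for HIS1-3, and of their 5 markers FMA alone, a bHLH factor that completes guard cell formation, was measured. FMA read 7.0, 7.03 and 6.84 in des1-1 and 6.66, 6.91 and 6.81 in the wild type (log2 difference 0.16, 95% interval -0.05 to 0.37, adjusted p = 0.449 in limma), and its part in the level of HIS1-3 was not tested. Markers of epidermis, trichomes, phloem and xylem, dividing cells and flowers were not analysed here.

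The families of the 4 genes were set beside them. Among the 51 other loci on the family lists 12 had a probe set of their own, and 0 of these 12 passed limma's test across all probe sets, where 0.387% passed. At an unadjusted p under 0.05 it was also 0 of 12, where 15.6% of all probe sets lay. Their log2 differences ran from -0.29 to 0.22 with a median of 0.04, against a median of 0.00 over all probe sets. With so few relatives measured, the lists do not describe whole families.

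**Figure D3:**
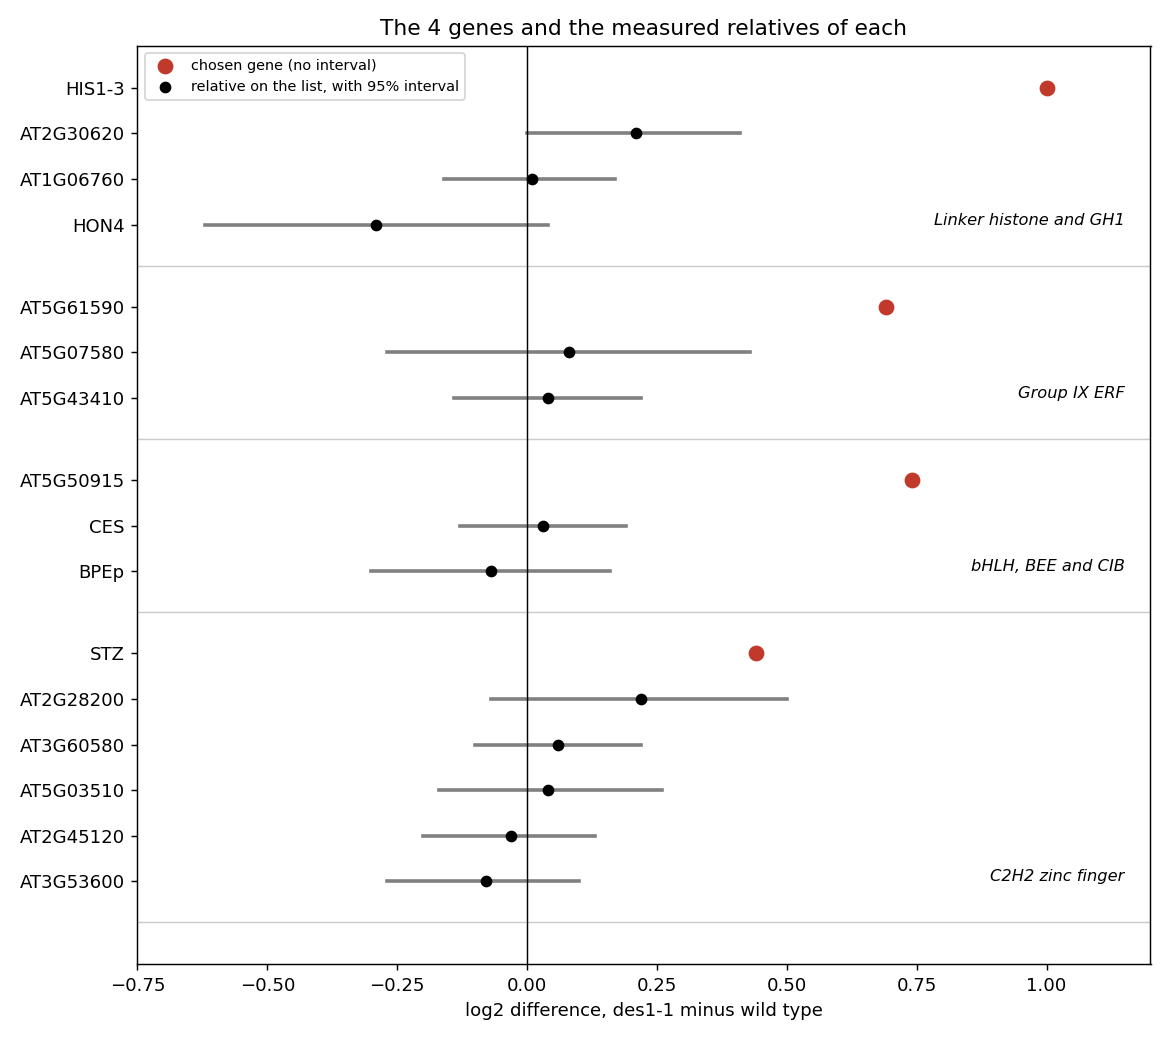
Log2 difference (des1-1 minus wild type, horizontal axis) of the 4 chosen genes in red and of the 12 measured relatives in black with limma's 95% interval, grouped by family. The relatives lie between -0.29 and 0.22, and all 12 intervals include 0. The chosen genes lie at 0.44 to 1.00, but they were chosen from this contrast, so their distance from the relatives is no test.

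On the linker histone list HIS1-3 had 3 measured companions of 8. AT2G30620, entered on the list as the linker histone H1.2, read 10.79, 10.86 and 10.83 in des1-1, against 10.66, 10.45 and 10.75 in the wild type. Its genotypes did not overlap, with a mean log2 difference of 0.21 (95% interval -0.00 to 0.41, adjusted p = 0.323 in limma). AT1G06760, entered as H1.1, averaged 10.00 ± 0.076 in des1-1 and 9.99 ± 0.017 in the wild type (SD, n = 3 each), a difference of 0.01 with an interval of -0.16 to 0.17. HON4, which shares the globular domain of linker histones, differed by -0.29 (95% interval -0.62 to 0.04, adjusted p = 0.378 in limma) and was 8.96 on wild-type replicate 2 against 8.18 to 8.56 on the other arrays.

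Core histones package DNA into the nucleosome itself, and 12 of 44 listed loci were measured. None passed in limma (0 of 12, against 0.387% of all probe sets), with 2 of 12 below an unadjusted p of 0.05, a share close to the 15.6% of all probe sets. HTB2, a histone H2B gene, read 8.49, 7.80 and 8.20 in des1-1 and 8.71, 8.59 and 8.61 in the wild type, a difference of -0.47 ± 0.15 SE (adjusted p = 0.204 in limma). It passed in limma without des1-1 replicate 1 (adjusted p = 0.0405). AT3G09480 differed by 0.21 ± 0.09 SE (adjusted p = 0.312), HTB11 by 0.18 ± 0.11 SE and AT2G37470 by -0.17 ± 0.13 SE. The list median was 0.00, as over all probe sets.

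Of the group IX ethylene response factors, to which DEWAX belongs, 2 of 15 others were measured. AT5G07580 read 10.13, 9.67 and 10.15 in des1-1 and 9.72, 10.14 and 9.84 in the wild type, so its genotypes overlapped throughout (log2 difference 0.08, 95% interval -0.27 to 0.43). AT5G43410 differed by 0.04 (95% interval -0.14 to 0.22) and was dim, with 4.68 ± 0.06 in des1-1 and 4.64 ± 0.098 in the wild type (SD, n = 3 each), just under the arrays' lower quartiles of 4.69 to 4.78. For dim probe sets such as this, RMA compresses differences.

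Wax synthesis, which DEWAX represses, was seen through 4 of 27 listed genes, and 0 passed in limma or at an unadjusted p under 0.05. Over all probe sets those shares were 0.387% and 15.6%. ACLA-2, for a subunit of the ATP-citrate lyase that supplies acetyl-CoA, read 7.78, 7.69 and 7.79 in des1-1, against 7.81, 7.64 and 7.75 in the wild type (difference 0.02, 95% interval -0.16 to 0.20). AT4G13840, named CER26, which takes part in the elongation of wax acyl chains, differed by 0.04 (-0.14 to 0.22). SHN3, a factor of the SHINE family that promotes cuticle formation, differed by -0.03 (-0.18 to 0.13). WSD1, the wax ester synthase, differed by -0.15 (-0.36 to 0.06) but was dim, at 4.30, 4.27 and 4.03 in des1-1 and 4.34, 4.42 and 4.28 in the wild type.

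The bHLH list, of genes related to the BEE and CIB factors, had 2 measured genes besides AT5G50915 among 13. BPEp, which limits petal growth, read 5.45, 5.50 and 5.24 in des1-1 and 5.58, 5.32 and 5.51 in the wild type (difference -0.07, 95% interval -0.30 to 0.16). CES, a brassinosteroid-linked factor, differed by 0.03 (-0.13 to 0.19) and was dim, at 4.33 ± 0.055 in des1-1 and 4.30 ± 0.029 in the wild type (SD, n = 3 each). Neither passed in limma (adjusted p = 0.804 and 0.895).

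Of the C2H2 zinc finger genes related to STZ, 5 of 15 others were measured. AT2G28200 read 6.08, 5.97 and 6.47 in des1-1 and 5.93, 5.91 and 6.03 in the wild type. Its difference of 0.22 (95% interval -0.07 to 0.50, adjusted p = 0.467 in limma) had des1-1 replicate 3 as its highest array, as did STZ. The remaining zinc finger genes, AT3G53600 (-0.08), AT3G60580 (0.06), AT5G03510 (0.04) and AT2G45120 (-0.03), had log2 differences with intervals that all included 0. AT3G53600 and AT2G45120 were dim, below the arrays' lower quartiles on all 6 arrays, at 4.15 and 4.38 on average in des1-1 and 4.23 and 4.41 in the wild type, where differences are compressed. AT3G60580 and AT5G03510 lay near the lower quartiles, with 4.86 and 4.66 in des1-1 and 4.80 and 4.61 in the wild type.

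HIS1-3 and STZ are both known to be induced by dehydration, and 4 of the 39 genes listed for dehydration and abscisic acid were measured. COR15A, a protein of the chloroplast stroma made in the cold, fell to 12.40 ± 0.075 in des1-1, against 13.08 ± 0.126 in the wild type (SD, n = 3 each). Its log2 difference was -0.68 ± 0.09 SE, with an adjusted p of 0.0228 in limma. That call was lost without des1-1 replicate 2 or 3 (adjusted p = 0.0603 and 0.0681) and without wild-type replicate 1, 2 or 3 (0.109, 0.0696 and 0.0925), while the difference stayed between -0.74 and -0.61. COR15B differed by -0.41 ± 0.09 SE (adjusted p = 0.123) and the dehydrin gene COR47 by -0.31 ± 0.10 SE (adjusted p = 0.194), both without overlap between genotypes. LTI30, another dehydrin gene, read 6.49, 6.59 and 6.81 in des1-1 and 6.44, 6.56 and 6.60 in the wild type, a difference of 0.10 ± 0.10 SE. Of these 4 genes 1 passed in limma and 3 were below an unadjusted p of 0.05. Over all probe sets those shares were 0.387% and 15.6%. Without overlap in either direction were 4215 of the 22746 probe sets. The 3 COR genes had a sign opposite to that of HIS1-3 and STZ, and LTI30 had the same sign. With 4 of 39 listed genes measured, the list does not describe the whole response. Its link to the 4 chosen genes was not tested.

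STZ also stands on 2 lists of rapid stress responses. It was the only one of the 27 early stress, touch and wound genes with a probe set that names it alone, and the others were not analysed here. Of the other 14 oxidative stress genes 4 were measured, of which 0 passed in limma and 1 was below an unadjusted p of 0.05, where 0.387% and 15.6% of all probe sets lay. That gene was CCS, the copper chaperone of superoxide dismutase, at 6.25, 6.34 and 6.34 in des1-1 and 6.78, 6.57 and 6.39 in the wild type (log2 difference -0.27 ± 0.10 SE, adjusted p = 0.261). AT2G21640 differed by 0.35 ± 0.15 SE (adjusted p = 0.327) and was scattered in des1-1, at 6.53, 6.20 and 6.87, against 6.22, 6.27 and 6.06 in the wild type. The ascorbate peroxidase genes SAPX and TAPX differed by -0.09 ± 0.08 and 0.03 ± 0.11 SE.

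Genes with the most similar pattern were sought by the root mean square difference over the 6 arrays, each gene taken relative to its own wild-type mean on the log2 scale. A smaller value means more alike. For HIS1-3 they were AT5G58570 (0.085), AT3G23550 (0.144) and AT1G49500 (0.174). AT5G58570 read 9.36, 9.17 and 9.40 in des1-1, against 8.37, 8.42 and 8.41 in the wild type, with replicate 2 the lowest des1-1 array in both genes. For AT5G61590 they were AT2G46600 (0.067), a probe set of the mitochondrial gene nad1 (0.080) and one of cox1 (0.090).

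For AT5G50915 they were DFR, dihydroflavonol 4-reductase of anthocyanin synthesis (0.096), AT5G61590 (0.096) and AT2G46600 (0.105). DFR read 9.90, 9.70 and 9.52 in des1-1 and 8.88, 9.03 and 9.04 in the wild type. AT5G50915 and AT5G61590 are the closest pair among the 4 genes. HIS1-3 and STZ are the least alike, at 0.436. For STZ the likest genes were AT2G31440 (0.049), AT2G28400 (0.061) and AT2G37580 (0.064), each with replicate 3 as its highest des1-1 and lowest wild-type array, as in STZ. Any 2 genes that differ by a similar amount between genotypes score as alike here, and the values carry no test.

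**Figure D4:**
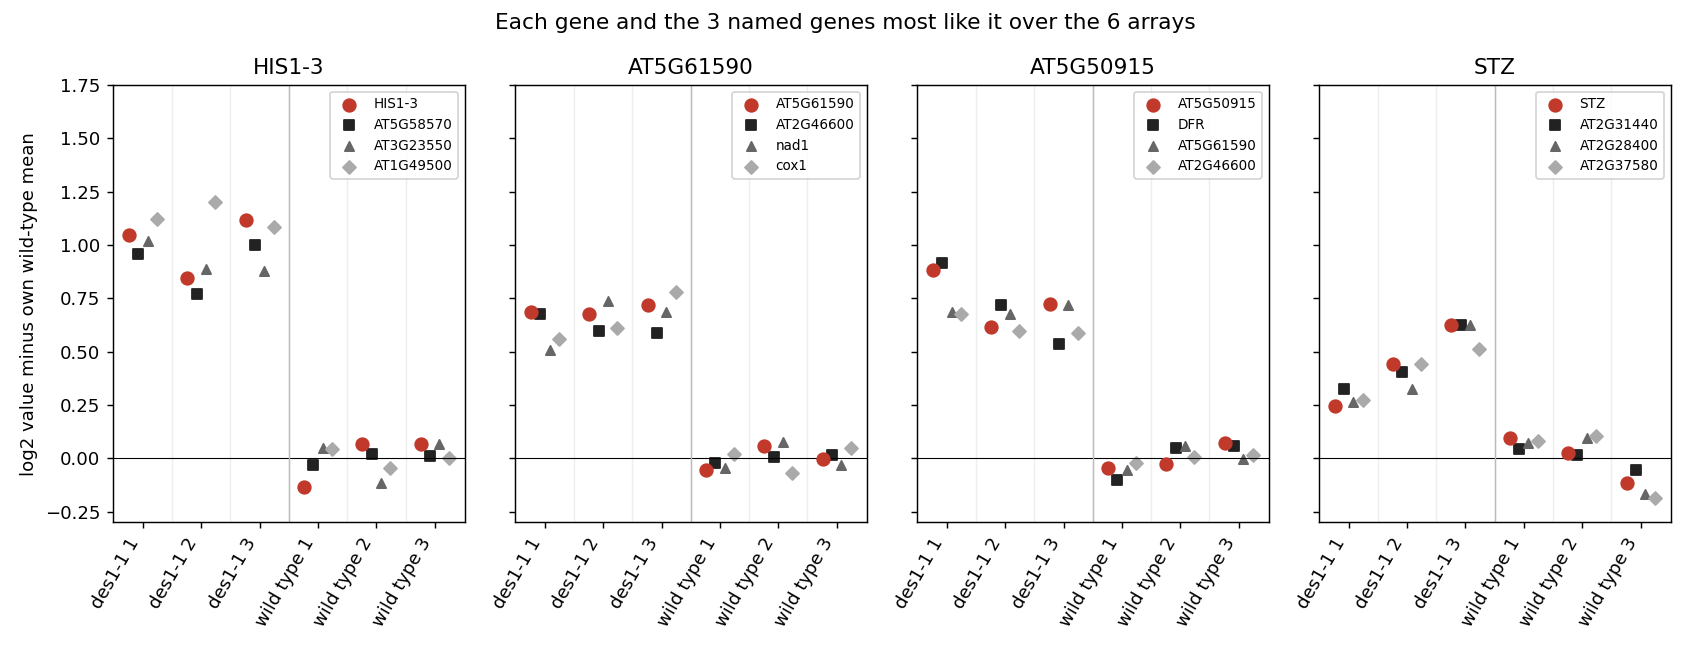
Log2 value minus the gene's own wild-type mean (vertical axis) on each of the 6 arrays (horizontal axis) for the 4 genes, in red circles, and the 3 named genes most like each, in dark to light grey. On the des1-1 arrays HIS1-3 and its likest genes lie near 1, AT5G61590 and AT5G50915 with theirs near 0.7, and STZ and its likest genes are highest on replicate 3 and lowest on replicate 1.

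The genes lie apart in the genome, HIS1-3 on chromosome 2, STZ on chromosome 1, and AT5G61590 and AT5G50915 at separate places on chromosome 5. Of the 40 protein-coding genes within 5 gene positions of one of them on either side, 19 were measured. In limma 0 of these 19 passed, against 0.387% of all probe sets, and 2 were below an unadjusted p of 0.05, against 15.6% of all probe sets. The log2 differences ran from -0.20 to 0.25. Those 2, picked after their values were seen, were AT2G18090 near HIS1-3 (-0.20 ± 0.08 SE) and AT5G61540 near AT5G61590 (0.20 ± 0.08 SE). The gene next to AT5G50915, AT5G50910, differed by 0.04 (95% interval -0.13 to 0.21), and it was dim, at 4.03 ± 0.025 in des1-1 and 3.99 ± 0.075 in the wild type (SD, n = 3 each). Around STZ the 3 measured neighbours differed by -0.08 to 0.01.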

How the data were processed

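The deposited table holds log2 values, for which the submitters' processing notes name RMA and affy; their versions and the genome build are not given in the sources used here. RMA subtracts background, equalises the arrays' distributions and summarises probe sets, which removes any shift common to a whole array. Arrays have no read depth, and their number limits the precision.

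Of 22810 probe sets 64 are controls, and the other 22746 were tested. The platform annotation gives 1 gene for 13513 and several for 503, and 13436 of the 13513 matched the TAIR10.1 gene table, used for names and neighbours. A gene with several probe sets is represented by the brightest.

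The test was that of limma 3.58.1 under R 4.3.3, with lmFit and eBayes at default settings and a single term for genotype. Its two-sided p-values were adjusted by Benjamini-Hochberg across the 22746 probe sets and called under 0.05. All SEs, 95% intervals and adjusted p come from that fit, which was tested on simulated data. Replicates are biological, per the labels. Tables and plots used Python 3.11.15, pandas 2.3.3 and matplotlib 3.10.9.

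The 4 genes, the 17 gene lists and the tests were chosen with earlier results of these data known. The text names all 4 genes, up to 6 measured genes of each family list and up to 4 of each other list by smallest unadjusted p, and the 3 genes most like each of the 4. Neighbouring genes were added after the files were seen. Alternatives changed scaling, dim filters, eBayes settings, array weights, the replicate block and the arrays included.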

Additional observations from a re-analysis of the deposited data

How the results depend on the processing

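Each of the 4 genes kept its direction in all 15 alternative settings, with no overlap between genotypes and a difference that moved by less than the larger of its 2 genotype SDs. Against the smaller SD, AT5G61590 (0.67 to 0.72 over the settings, SD 0.021) and AT5G50915 (0.67 to 0.80, SD 0.064) moved by more. Only the rescalings could have changed the direction or the overlap. Genotypes that do not overlap stay apart when arrays are left out, and the remaining settings keep the array values as they are. The 88 calls over all probe sets (75 higher, 13 lower) became 20 to 765 with 1 array left out (19 to 219 higher, 0 to 546 lower). Without wild type 2 and des1-1 3 together, chosen after seeing the data, they became 9, all of them higher and 0 lower. An intensity trend gave 151 calls, 40 of them lower, and 27 and 26 were lower without the dimmest 25% and 50%. The labels name no batch for the replicate numbers. Arrays of 1 number deviated from their genotype means with correlations of 0.17, -0.23 and 0.21, and 4 of the 6 arrays correlated best with their own number. Whether arrays of 1 number share a batch was not tested. The replicate block gave 183 calls, 89 of them lower, and left the 4 differences unchanged, as a balanced block does. Probe sets without overlap, 4215 in all, became 5625 to 7630 with 1 array left out and 8198 without the pair, where fewer arrays make a gap more frequent. Of the 45 measured list genes other than the 4, 1 passed lower, 2 with an intensity trend, where COR15B joined (adjusted p = 0.0493, within 0.0493 to 0.489 over its alternatives), 0 to 2 with 1 array left out and 0 without the pair. Some of these fits held fewer arrays or features, and the cause of the changed counts was not tested.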
